A study of Mus musculus with 5 samples.

Results

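Polybrominated diphenyl ethers (PBDEs), a mixture of 3 flame retardants, were given with 17β-estradiol to ovariectomized mice, and the resulting mammary gland library, OVX_E2_PBDE, was compared with the library from mice given 17β-estradiol and no PBDEs, OVX_E2. The comparison used these 2 libraries of 5, 1 library per group, with 5769 of the 14344 barcodes in the series. Within them, 4336 barcodes fell into 3 classes set by a few marker genes. Hormone-sensing barcodes had at least 10 Prlr and Cited1 UMIs (unique molecular identifiers, counted mRNA molecules) and fewer than 5 Csn3 and Spp1 UMIs per 10000. Alveolar barcodes had the reverse, with at least 10 Csn3 and Spp1 UMIs and fewer than 5 of Prlr and Cited1. Fibroblasts had at least 50 UMIs of Col1a1, Col1a2, Col3a1 and Dcn per 10000 and fewer than 5 of Epcam and Krt18. The question was whether PBDEs in the food changed what each class transcribed while estradiol was present.

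All mice were female BALB/cj, labelled as 30 weeks of age, and their ovaries had been removed 20 weeks before a treatment of 1 week. Both groups received estradiol (1 μg per animal) by daily intraperitoneal injection. The PBDE congeners in the food were BDE-47 (7.1 mg per kg), BDE-153 (0.9 mg per kg) and BDE-100 (0.4 mg per kg), and the other mice ate a nutrient-matched diet with DMSO. The other 3 libraries came from mice given vehicle (OVX), estradiol with 0.1 mg progesterone (OVX_E2_P4), and both hormones with PBDEs (OVX_E2_P4_PBDE). The fourth glands were digested whole after the lymph node was taken out, and the cells were captured without sorting on the 10x Chromium 3′ system. How many mice supplied each library was not given in the sources used here, so the spread between animals was not measurable, no difference below carries a p-value, and all intervals are 95% exact intervals that cover counting error alone. In a sum over many barcodes, fewer cells that carry a transcript and less of it per cell cannot be told apart unless the shares of barcodes are given.

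PBDEs are studied as endocrine-disrupting chemicals that disturb thyroid and sex hormone signalling. In the mammary epithelium the estrogen and progesterone receptors are concentrated in luminal hormone-sensing cells, which pass the signal on through secreted factors such as amphiregulin (Areg) and Wnt4. Luminal alveolar cells lack most of these receptors, respond to the secreted factors and make milk proteins in lactation. Fibroblasts receive amphiregulin through the EGF receptor and return growth factors and matrix to the ducts.

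The OVX_E2 library held 2233 barcodes and 29590862 UMIs (median 8698 per barcode), and the OVX_E2_PBDE library held 3536 barcodes and 42012988 UMIs (median 8116). The other 3 libraries had 19982067 to 32648416 UMIs. The 2 libraries shared 10 barcode sequences, within the 3 to 15 shared by any pair. The order of the libraries followed PBDEs: by the numbers the submitters gave the libraries, both PBDE libraries came first, in places 1 and 2, and a gap of 53 numbers separated them from the 3 libraries without PBDEs. PBDE treatment, library order and the animals used therefore cannot be told apart in any result below.

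The hormone-sensing class made up a smaller share of the gland with PBDEs and the fibroblasts a larger one. Hormone-sensing barcodes were 633 of 2229 in OVX_E2 (28.4%, 26.5 to 30.3%) and 714 of 3526 in OVX_E2_PBDE (20.2%, 18.9 to 21.6%), a difference of -8.15 percentage points (-10.5 to -5.84). Fibroblasts were 813 barcodes (36.5%) and 1841 barcodes (52.2%), a difference of 15.7 points (13.1 to 18.3). Alveolar barcodes were 139 (6.24%) and 196 (5.56%), and this difference of -0.677 points had an interval that included 0 (-1.99 to 0.584). Among the barcodes of both luminal classes, the alveolar share was 18.0% in OVX_E2 and 21.5% in OVX_E2_PBDE, a difference of 3.53 points (-0.379 to 7.40). Shares add up to a whole, so more fibroblasts captured and fewer epithelial cells captured cannot be told apart. With progesterone the hormone-sensing share was 5.86 points higher with PBDEs, the alveolar share differed by -13.4 points, and the fibroblast share was 10.8 points higher. Levels given below for OVX rest on 114 hormone-sensing barcodes, 33 alveolar barcodes and 2546 fibroblasts.

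**Figure D1:**
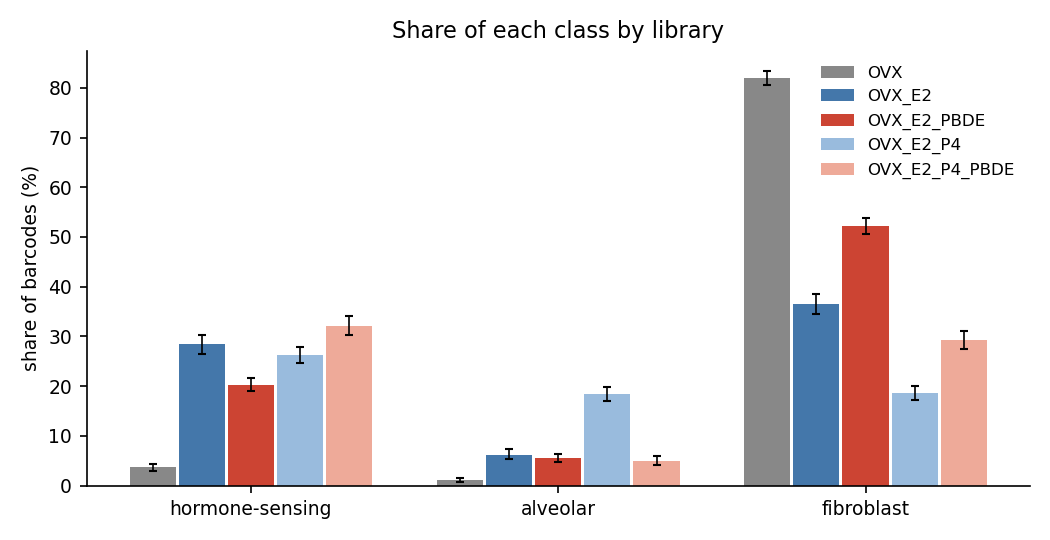
Share of barcodes in each class (%, bars) in each of the 5 libraries, with 95% exact binomial intervals as lines. Between OVX_E2 and OVX_E2_PBDE the hormone-sensing share was 28.4% and 20.2%, the alveolar share 6.24% and 5.56%, and the fibroblast share 36.5% and 52.2%.

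Few fibroblasts lay near the lower limit of their class. Relative to class size, barcodes near it were most frequent in the alveolar class. Nearness to the limit on the other markers was not counted. Within 20% of the lower limit there were 49 and 50 hormone-sensing barcodes in OVX_E2 and OVX_E2_PBDE, 21 and 16 alveolar barcodes, and 2 and 8 fibroblasts, counting both sides of it. Barcodes with at least 5 UMIs per 10000 of both luminal programs, 278 in OVX_E2 and 365 in OVX_E2_PBDE, stayed outside the classes, and their median of 27006.5 and 27174 UMIs was above the 10680 and 11141.5 UMIs of hormone-sensing barcodes. Markers that the rule did not use followed the names, though Krt8 was in both the alveolar and the hormone-sensing list. The summed level of 9 alveolar markers was 11068 and 11832 CPM (UMIs per 1000000 UMIs of the class) in alveolar barcodes against 3558 and 3715 in hormone-sensing barcodes and 573 and 544 in fibroblasts. That of 8 hormone-sensing markers was 7454 and 8062 in hormone-sensing barcodes against 3259 and 2844 in alveolar barcodes. In fibroblasts it was 2702 and 2813, of which Ly6a, a gene that fibroblasts also express, gave 2469 and 2591. That of 10 fibroblast markers was 14153 and 12193 in fibroblasts against 486 and 507 in hormone-sensing barcodes. The 4 fibroblast genes of the rule summed to a similar level in hormone-sensing barcodes of both libraries, 1515 CPM in OVX_E2 and 1478 in OVX_E2_PBDE. The luminal classes had no limit on these genes, so free RNA and barcodes that also held a fibroblast were not told apart. Free RNA levels below are each gene's all-barcode level times the percentage of that level which gauge genes reached in the class. The gauge genes were those 4 in luminal classes and Krt8, Krt19, Wfdc18 and Areg in fibroblasts. These levels are estimates and can exceed the level measured.

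Across all genes, CPM levels were compared, and a gene was called higher or lower when the ratio of OVX_E2_PBDE to OVX_E2 was at least 1.5 or at most its inverse, with at least 200 UMIs over both libraries. In hormone-sensing barcodes 68 of 6463 genes (1.05%) were higher and 228 (3.53%) were lower. In alveolar barcodes 53 of 2647 (2.00%) were higher and 165 (6.23%) were lower. In fibroblasts 46 of 6706 (0.686%) were higher and 243 (3.62%) were lower. The median gene was itself lower with PBDEs, by -0.14, -0.17 and -0.15 on the log2 scale in the 3 classes, while ribosomal protein genes took a larger part of the UMIs. Divided by the median ratio, the split became 134 higher and 112 lower in hormone-sensing barcodes, 108 and 61 in alveolar barcodes, and 117 and 106 in fibroblasts. This division centres the median gene by construction, so the split does not show where the excess of lower genes came from. Without mitochondrial and ribosomal genes in the total, the counts were 87 higher and 76 lower in alveolar barcodes and 84 and 145 in fibroblasts. The source of the excess was not tested, and each gene is best read against the median of its class. Calls of higher and lower below were made before division by the median ratio unless stated.

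**Figure D2:**
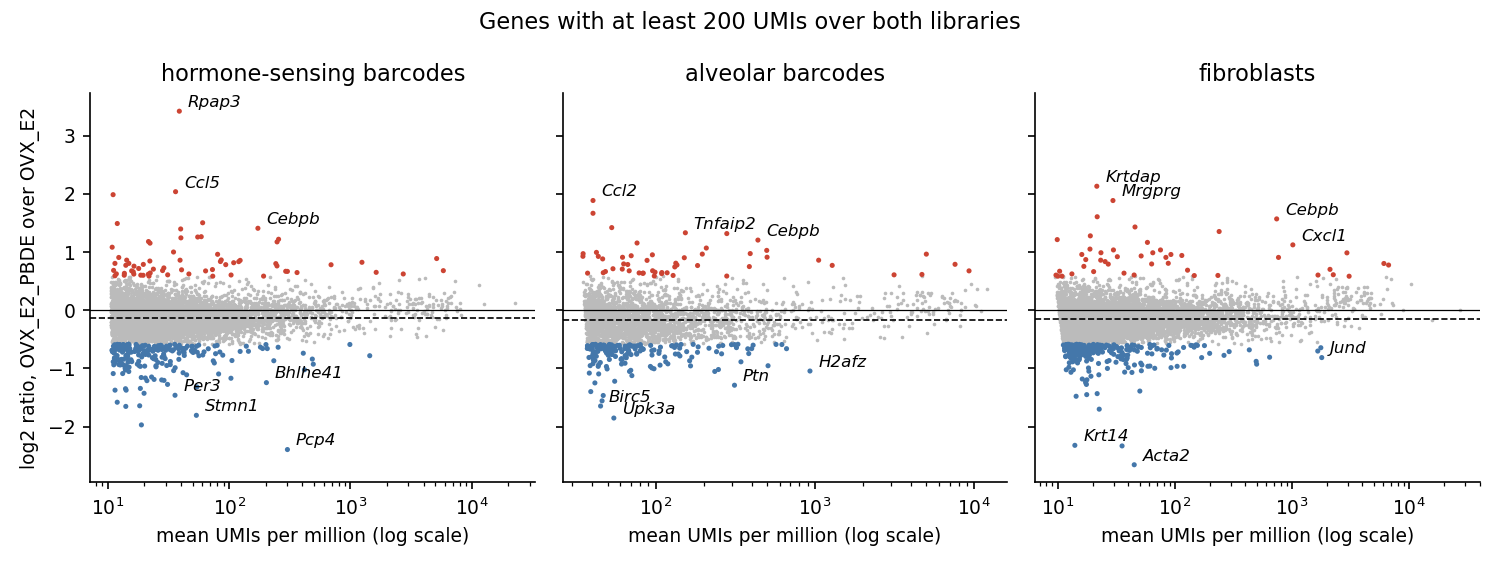
Log2 ratio of OVX_E2_PBDE to OVX_E2 (y axis) against the mean level of the 2 libraries in CPM (x axis, log scale) for each gene with at least 200 UMIs, in the 3 classes. Red and blue points passed 1.5-fold, grey points did not, and the dashed line is the median gene; Rpap3 (ratio 10.7) and Pcp4 (0.190) stand furthest from it among hormone-sensing genes.

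Estrogen-responsive genes did not move together in the hormone-sensing class. Pcp4, a small calmodulin-binding protein, was at 508 CPM in OVX_E2 and 96.6 in OVX_E2_PBDE, beside 5.64 in OVX, 247 in OVX_E2_P4 and 376 in OVX_E2_P4_PBDE. Every library with estradiol was above OVX, and OVX_E2_PBDE was the lowest of the 4, with a ratio to OVX_E2 of 0.190 (interval 0.177 to 0.204). This was the lowest ratio among the 6463 genes compared. The gene lies at chr16:96467606-96525793 on the plus strand of GRCm38 (GENCODE M21). After each barcode was thinned to 3000 UMIs, 24.3% of hormone-sensing barcodes held a Pcp4 UMI in OVX_E2 and 7.56% in OVX_E2_PBDE (without thinning 37.8% and 12.6%). Fibroblasts, at medians of 6698 and 7076 UMIs, gave thinned shares of 2.46% and 0.435%. The top 1% of barcodes held 27.7% of the Pcp4 UMIs in OVX_E2 and 56.6% in OVX_E2_PBDE.

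Areg, the main secreted mediator of estrogen in the duct, went the other way. It was at 1442 CPM in OVX_E2 and 1994 in OVX_E2_PBDE, beside 319 in OVX, 1385 with progesterone and 1267 with progesterone and PBDEs. Its ratio of 1.38 (interval 1.35 to 1.41) was above 1 and short of 1.5-fold, and past 1.5-fold when divided by the class median ratio of 0.909. Pgr, the progesterone receptor, was at 106, 136 and 118 in OVX, OVX_E2 and OVX_E2_PBDE (ratio 0.868, interval 0.80 to 0.942). Esr1, the estrogen receptor α, was at 116, 58.0 and 47.4 (ratio 0.817, interval 0.719 to 0.928). The intervals of both receptor ratios included the class median ratio of 0.909. Greb1, an estrogen receptor cofactor, had 22 UMIs in OVX_E2 and 4 in OVX_E2_PBDE (ratio 0.159, interval 0.0398 to 0.468), counts too small for the 200-UMI rule.

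**Figure D3:**
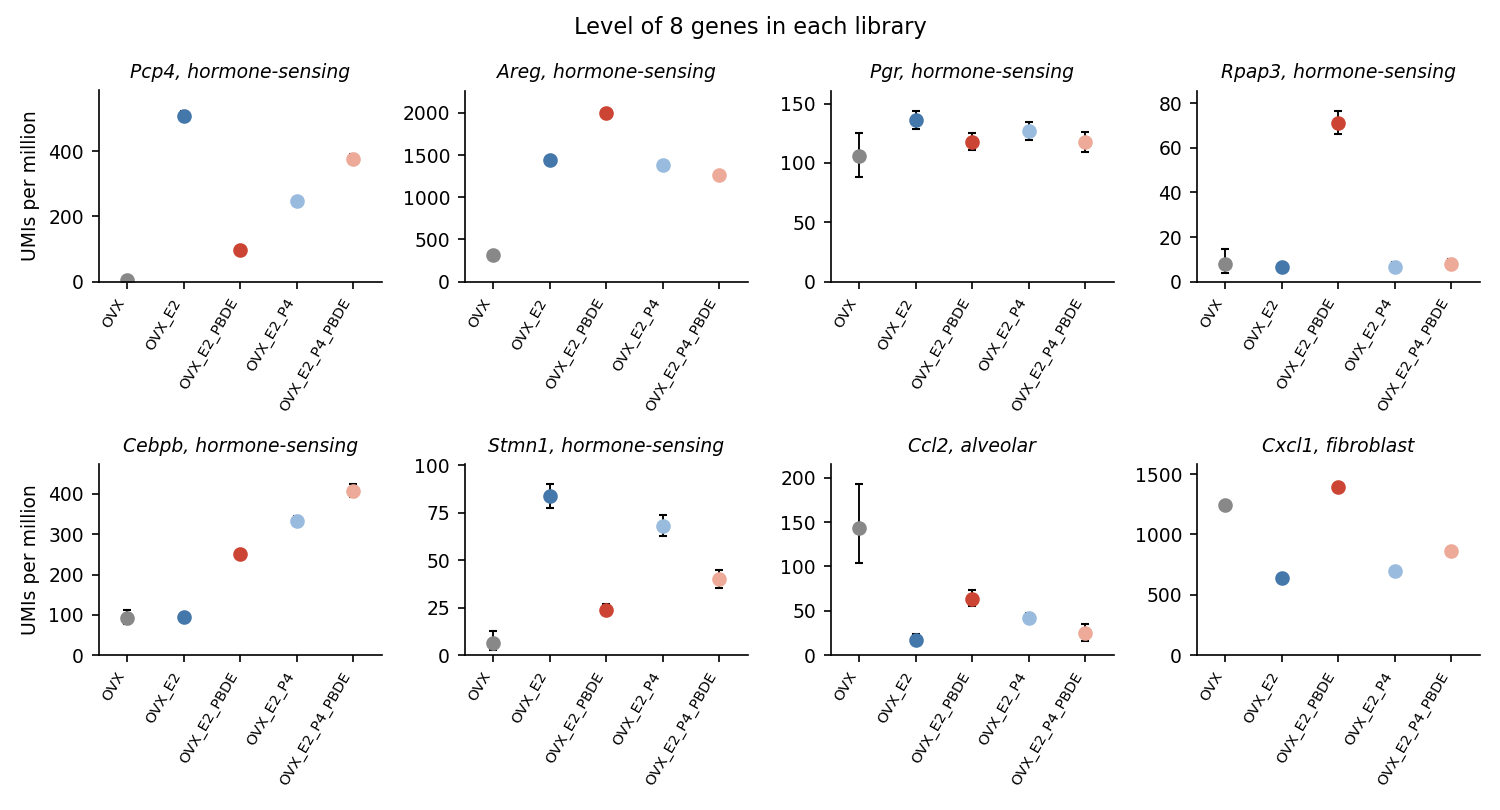
Level of 8 genes in CPM (y axis, from 0) in each library (x axis), with 95% exact Poisson intervals where they exceed the symbol. In hormone-sensing barcodes Pcp4 was 508 in OVX_E2 and 96.6 in OVX_E2_PBDE, Areg was 1442 and 1994, and Rpap3 was 6.63 and 71.2; Ccl2 in alveolar barcodes and Cxcl1 in fibroblasts were higher in OVX_E2_PBDE than in OVX_E2.

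Of 20 estrogen-responsive genes, 17 had at least 50 UMIs in hormone-sensing barcodes, and 1 was higher and 2 were lower by 1.5-fold. At that minimum, 2.11% of all 10329 genes were higher and 6.96% lower in this class. The list's median log2 ratio was -0.20, beside -0.14 for all genes at the same minimum. The higher gene was Wnt4, a ligand downstream of progesterone (36.7 and 56.6 CPM, ratio 1.54, interval 1.34 to 1.77). The lower genes were Pcp4 and Ccnd1, the cyclin that opens the G1 phase (253 and 159.9, ratio 0.633, interval 0.593 to 0.675). Among ligands and receptors outside the list, Wnt5a was lower (60.5 and 37.4, ratio 0.618), as were the EGF family ligand Epgn (29.4 and 12.7, ratio 0.432) and the growth hormone receptor Ghr (38.8 and 16.9, ratio 0.436). Divided by the class median ratio of 0.909, Ccnd1 and Wnt5a fell short of 1.5-fold.

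Cell cycle genes were lower with PBDEs in both luminal classes. Of 22 genes, 20 had at least 50 UMIs in hormone-sensing barcodes, and 17 were lower by 1.5-fold and 0 higher, with a median log2 ratio of -1.15 beside -0.14 for all genes. Of all genes there, 6.96% were lower and 2.11% higher. In alveolar barcodes 15 of 19 were lower and 0 higher, with a median of -1.05 beside -0.17, where 10.9% of all 6975 genes were lower and 3.33% higher. In fibroblasts 3 of 8 were lower and 0 higher, with a median of -0.34 beside -0.16, where 8.41% of all 10366 genes were lower and 1.40% higher.

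Stmn1 (stathmin, which takes apart microtubules) was at 6.45, 83.6, 23.9, 68.1 and 40.0 CPM in hormone-sensing barcodes of OVX, OVX_E2, OVX_E2_PBDE, OVX_E2_P4 and OVX_E2_P4_PBDE. OVX_E2_PBDE was the lowest of the 4 libraries with estradiol, and its ratio to OVX_E2 was 0.286 (interval 0.246 to 0.331). Replication genes were lower too. The ratio was 0.180 for Mcm3, 0.195 for Mcm5 and 0.334 for Mcm6, subunits of the helicase that opens replication origins, and 0.392 for Rrm2, which makes deoxynucleotides, while Mcm7 and Pcna, the replication clamp, had 0.564 and 0.593. Among mitotic genes, Birc5 (survivin) had a ratio of 0.386 (interval 0.283 to 0.521) and Cdk1, the mitotic kinase, 0.263 (interval 0.156 to 0.429). The genes short of 1.5-fold were Hmgb2, a chromatin protein, at 0.680 (interval 0.632 to 0.732), Ube2c, the ubiquitin carrier of mitotic exit, at 1.41 (interval 1.01 to 1.98), and Cenpf, a kinetochore protein, at 1.29 (interval 0.915 to 1.82). Ube2c and Cenpf had few UMIs (60 and 97, 59 and 87), and Mcm3, Mcm5 and Cdk1 were also below 200 UMIs over both libraries. Of the list, 7 genes had at least 200 UMIs in hormone-sensing barcodes, and 6 of them were lower. In OVX_E2 and OVX_E2_PBDE, the top 1% of hormone-sensing barcodes held 41.4% and 93.8% of the Birc5 UMIs. The shares were 39.2% and 67.1% for Rrm2, 27.2% and 57.7% for Stmn1, 19.7% and 31.7% for Mcm6, and 18.0% and 12.1% for Pcna. The intervals cover counting error and not this spread between barcodes.

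In alveolar barcodes, Stmn1 was at 317 and 153 CPM in OVX_E2 and OVX_E2_PBDE (ratio 0.482, interval 0.429 to 0.541), Birc5 at 68.5 and 21.9 (ratio 0.319), and Ube2c at 68.9 and 23.4 (ratio 0.340). Chromatin and cytoskeleton genes of dividing cells were among the 10 lowest there, with H2afz, a histone variant, at a ratio of 0.484, Smc4, a condensin subunit, at 0.429 and Tubb5, a tubulin, at 0.493. Ccnd1 (326 and 194, ratio 0.595) and its partner kinase Cdk4 (228 and 138, ratio 0.606) were lower as well, and both fell short of 1.5-fold when divided by the class median ratio of 0.891. In fibroblasts Ccnd1 had a ratio of 0.602 at a low level, 19.2 and 11.6. Cdkn1a, an inhibitor of cyclin-dependent kinases, had ratios of 1.18, 1.02 and 0.959 in the 3 classes, short of 1.5-fold in each.

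After thinning, the share of barcodes with a proliferation marker was lower with PBDEs in each class, with counting intervals of the 2 libraries that overlapped in all 3. With each barcode thinned to 3000 UMIs, a UMI of Mki67, Top2a, Cdk1, Ube2c or Ccnb2 was found in 5.06% of hormone-sensing barcodes in OVX_E2 (3.48 to 7.06%) and 2.52% in OVX_E2_PBDE (1.5 to 3.96%), and without thinning in 13.7% and 6.44%. The alveolar shares were 13.7% (8.43 to 20.5%) and 7.65% (4.35 to 12.3%) after thinning. Fibroblasts were at 1.11% and 0.435%, and the luminal shares were above these in both libraries. Barcodes with at least 5 such UMIs numbered 20 in OVX_E2 (3.16%, 1.94 to 4.84%) and 6 in OVX_E2_PBDE (0.840%, 0.309 to 1.82%) in the hormone-sensing class, where the intervals did not overlap. In the alveolar class they numbered 20 (14.4%, 9.02 to 21.3%) and 14 (7.14%, 3.96 to 11.7%), with intervals that overlapped. A lower level of these genes in the summed class and fewer dividing cells in it cannot be told apart from the sums alone.

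Binding sites of the E2F factors, which switch on replication genes at the start of S phase, were searched in RefSeq promoters (GRCm38.p6) to show which cell cycle genes carry them. The letters TTTCGCGC or TTTGGCGC were sought on both strands of the 250 bases before each start, with overlapping matches counted. They were in 0.654% of all 32851 such windows and in 3 of the 19 cell cycle genes with a RefSeq window (Cdk1, Mcm5 and Mcm6). Mcm5 (chr8:75109259-75109508, plus strand) and Mcm6 (chr1:128359706-128359955, minus strand) are printed 5′ to 3′ on the gene's strand with the matches in capitals, as examples. Both were below a ratio of 0.5 in hormone-sensing barcodes, as was Cdk1, whose window is not printed. Mcm3, the helicase gene with the lowest ratio, was not among the 3 genes with a match. Where matches on opposite strands overlap, the capitals cover both. A match is a description of letters, not a measured site.
Mcm5: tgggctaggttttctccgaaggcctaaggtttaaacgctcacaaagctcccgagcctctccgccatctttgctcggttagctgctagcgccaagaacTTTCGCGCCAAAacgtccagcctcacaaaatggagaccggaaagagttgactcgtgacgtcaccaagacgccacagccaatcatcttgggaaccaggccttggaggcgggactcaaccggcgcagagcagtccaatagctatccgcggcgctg
Mcm6: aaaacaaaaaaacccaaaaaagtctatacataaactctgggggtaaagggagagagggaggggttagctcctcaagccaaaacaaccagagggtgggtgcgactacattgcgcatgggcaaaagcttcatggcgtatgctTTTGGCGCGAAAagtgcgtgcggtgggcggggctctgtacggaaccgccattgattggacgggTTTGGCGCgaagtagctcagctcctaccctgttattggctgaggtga

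Several circadian clock genes were lower in hormone-sensing barcodes, and their list was drawn up after Per3 and Bhlhe41 had been seen among the lowest genes. Dbp, also in the list, was among the 10 lowest as well. The hormone-sensing count below was therefore partly set by the choice of genes. The circadian clock is a feedback loop in which Clock and Arntl drive the Per and Cry genes through the E-box, and the factors Dbp, Tef and Hlf act through the D-box. Of 18 clock genes, 6 of 16 with at least 50 UMIs were lower by 1.5-fold in hormone-sensing barcodes and 0 were higher. Their median log2 ratio was -0.32 beside -0.14 for all genes. In alveolar barcodes 2 of 14 were lower and 0 higher, and in fibroblasts 3 of 16 were lower and 2 were higher. Over all genes at that minimum, 6.96% were lower in hormone-sensing barcodes, 10.9% in alveolar barcodes and 8.41% in fibroblasts, so the alveolar count was near the background.

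Bhlhe41, a repressor of the loop, was at 601, 285, 120.4, 216 and 180.3 CPM across OVX, OVX_E2, OVX_E2_PBDE, OVX_E2_P4 and OVX_E2_P4_PBDE, the lowest with PBDEs and estradiol (ratio to OVX_E2 0.422, interval 0.394 to 0.452). Per3, a period gene, was at 71.0, 52.6, 19.1, 37.2 and 36.8 in the same order, again lowest in OVX_E2_PBDE (ratio 0.363, interval 0.305 to 0.430). Dbp was at 135, 77.5, 31.1, 58.1 and 46.0 (ratio 0.401, interval 0.349 to 0.459). All 3 were lower in each library with estradiol than in OVX, and OVX_E2_PBDE was the lowest of the 5.

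Tef had a ratio of 0.448 (interval 0.356 to 0.563) and Nr1d2, a nuclear receptor that represses Arntl, 0.631 (interval 0.528 to 0.753). The core genes had ratios nearer to 1. The ratio was 0.842 for Per1, 0.854 for Per2, 0.888 for Cry1 and 0.872 for Clock, with intervals that reached 1 in each, and 0.732 (interval 0.645 to 0.830) for Nr1d1. In fibroblasts Per3 was at 35.4 in OVX_E2 and 17.7 in OVX_E2_PBDE (ratio 0.50, interval 0.413 to 0.604) and Bhlhe41 at 24.8 and 13.8 (ratio 0.556, interval 0.446 to 0.695). Arntl, whose peak is opposite to that of Per3 in many tissues, had 17 UMIs in OVX_E2 and 95 in OVX_E2_PBDE fibroblasts, a ratio of 2.39 (interval 1.42 to 4.27). Npas2, which can stand in for Clock, had ratios of 3.20 in hormone-sensing barcodes (6 and 22 UMIs) and 1.17 in fibroblasts. The time of day of collection in each group was not given in the sources used here.

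**Figure D4:**
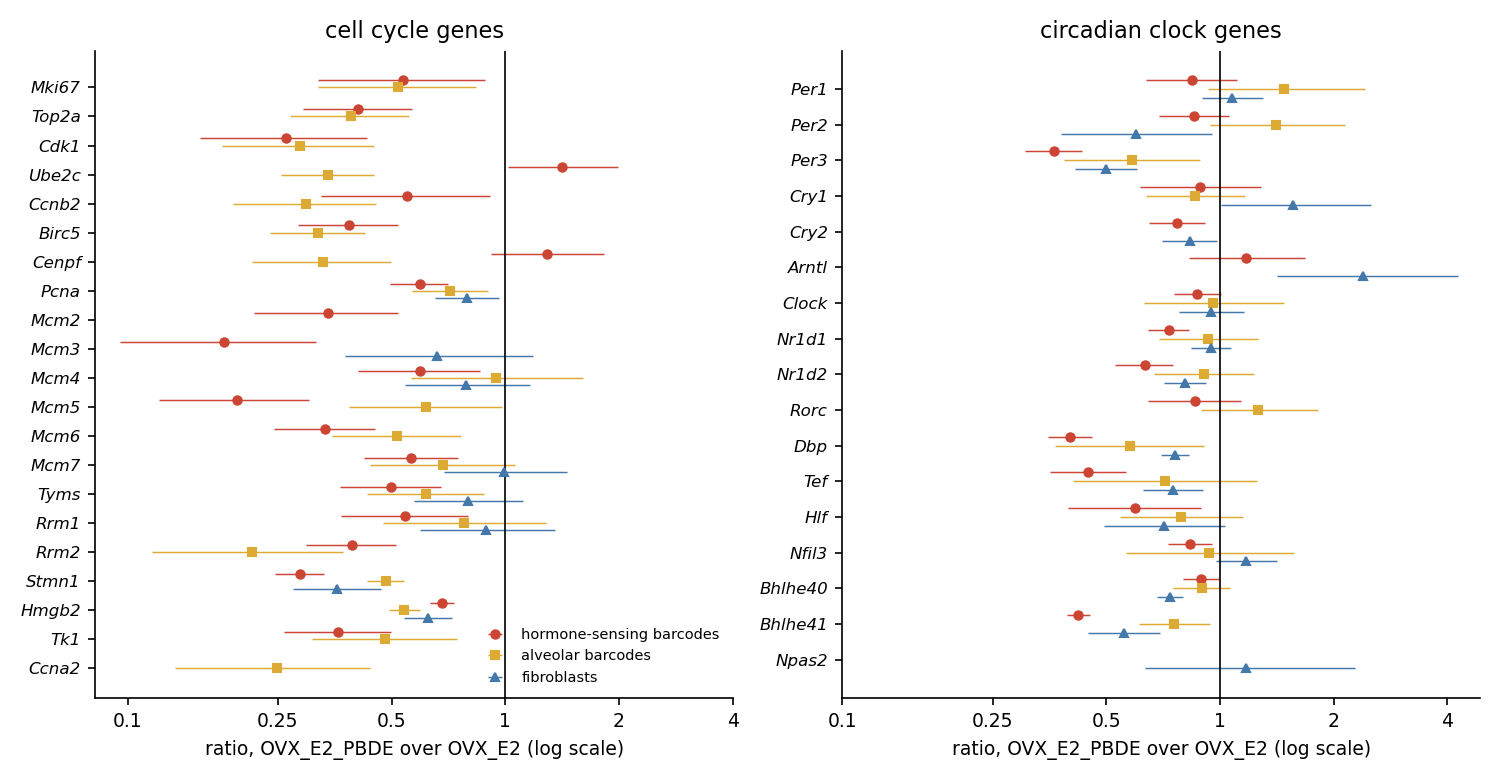
Ratio of OVX_E2_PBDE to OVX_E2 (x axis, log scale) for each cell cycle gene (left) and clock gene (right) with at least 50 UMIs, in hormone-sensing barcodes (circles), alveolar barcodes (squares) and fibroblasts (triangles), with 95% exact intervals. Most cell cycle genes of both luminal classes lie left of 1, and among clock genes Per3, Dbp, Tef and Bhlhe41 lie furthest left in hormone-sensing barcodes.

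The promoters of the clock genes that were lowest were searched for the E-box (CACGTG) and the D-box (TTATGTAA or TTATGCAA), on both strands of the 250 bases before each start. The E-box was in 6.02% and the D-box in 1.5% of all 32851 windows. Of the 15 clock genes with a RefSeq window, 5 held an E-box (Bhlhe41, Ciart, Cry1, Per1 and Tef) and 2 a D-box (Per1 and Per3). The windows of Per3 (chr4:151044666-151044915, minus strand, 2 D-boxes in capitals) and Bhlhe41 (chr6:145865421-145865670, minus strand, 1 E-box in capitals) are printed 5′ to 3′ because these were the period gene and the repressor with the lowest ratios. Per1 held both motifs, and its ratio was 0.842.
Per3: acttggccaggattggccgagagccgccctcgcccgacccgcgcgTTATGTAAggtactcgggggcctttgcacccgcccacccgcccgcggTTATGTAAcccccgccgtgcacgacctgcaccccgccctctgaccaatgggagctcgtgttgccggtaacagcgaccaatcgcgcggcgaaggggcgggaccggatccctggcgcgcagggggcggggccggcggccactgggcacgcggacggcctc
Bhlhe41: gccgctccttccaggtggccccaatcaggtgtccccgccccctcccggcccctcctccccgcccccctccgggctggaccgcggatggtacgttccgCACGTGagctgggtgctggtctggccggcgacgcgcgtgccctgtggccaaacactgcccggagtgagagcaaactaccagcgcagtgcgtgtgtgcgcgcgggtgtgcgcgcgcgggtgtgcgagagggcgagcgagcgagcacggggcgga

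The highest ratio in hormone-sensing barcodes was that of Rpap3, which encodes a helper of the Hsp90 chaperone in building RNA polymerase II and lies at chr15:97675097-97705825 on the minus strand. It was at 8.06, 6.63, 71.2, 6.77 and 7.90 CPM in OVX, OVX_E2, OVX_E2_PBDE, OVX_E2_P4 and OVX_E2_P4_PBDE, so that OVX_E2_PBDE stood apart from 4 libraries within a narrow range (ratio to OVX_E2 10.7, interval 8.20 to 14.3). It was found in 1.90% of thinned barcodes in OVX_E2 and 17.2% in OVX_E2_PBDE, and the top 1% of barcodes held 11.4% of its UMIs, so it was not the product of a few barcodes. In alveolar barcodes of the same libraries it was at 6.46 and 11.4 (ratio 1.76, on 15 and 37 UMIs), and in fibroblasts at 9.53 and 7.79.

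Cebpb, a transcription factor needed for luminal development and induced in inflammation, was higher in all 3 classes. In hormone-sensing barcodes it was at 92.7, 94.5, 251, 334 and 408 CPM from OVX to OVX_E2_P4_PBDE (ratio of OVX_E2_PBDE to OVX_E2 2.66, interval 2.45 to 2.88). In alveolar barcodes it was at 265 and 612 (ratio 2.31, interval 2.11 to 2.53), and in fibroblasts at 373 and 1107 (ratio 2.97, interval 2.84 to 3.11). OVX and OVX_E2 lay close together in each class (254 and 265 in alveolar barcodes, 393 and 373 in fibroblasts), and both libraries with progesterone were above OVX_E2 whether or not PBDEs were given. The share of thinned hormone-sensing barcodes with a Cebpb UMI was 20.1% in OVX_E2 and 41.9% in OVX_E2_PBDE.

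Metallothioneins, which bind zinc and cadmium and respond to metals and glucocorticoids, were higher in hormone-sensing barcodes. In hormone-sensing barcodes Mt1 was at 3138, 2142, 3302, 3639 and 2699 CPM across the 5 libraries and Mt2 at 2139, 1267, 1989.9, 2591 and 1321, with ratios of 1.54 and 1.57. OVX_E2 was the lowest of the 5 for both, and the pair with progesterone ran the other way. The ratios were 1.71 and 1.47 in alveolar barcodes and 1.36 and 1.71 in fibroblasts. The inducible Hsp70 genes were higher in both luminal classes: Hspa1a had a ratio of 1.79 in hormone-sensing and 2.23 in alveolar barcodes, Hspa1b 1.60 and 2.68, beside 0.945 and 1.40 in fibroblasts. Hspa1a and Hspa1b are near-identical copies, so the division of reads between them is uncertain.

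Ifi27l2a, an interferon-induced gene, was at 31.6 and 89.6 CPM in hormone-sensing barcodes (ratio 2.84, interval 2.48 to 3.26), below the 73.9 and 144 CPM that free RNA would give at the 20.2% and 17.8% of the all-barcode level reached by the fibroblast rule genes. Of 28 interferon-induced genes, 24 had at least 50 UMIs there, 3 were higher and 0 lower, with a median log2 ratio of 0.22. Chemokines were higher as well, with 7 of 17 higher and 0 lower and a median of 0.49. Over all genes at 50 UMIs in this class, 2.11% were higher and 6.96% lower. Cxcl10, an interferon-induced attractant, had 15 and 71 UMIs (ratio 4.14, interval 2.35 to 7.78). Ccl5, a T cell attractant, had the second highest ratio of the genes with at least 200 UMIs (4.11, interval 3.38 to 5.03), and 82.0% of its UMIs in OVX_E2_PBDE came from the top 1% of barcodes. Ccl7 and Ccl2, monocyte attractants that fibroblasts make in quantity, had ratios of 2.40 and 1.5 in hormone-sensing barcodes, at 34.7 and 83.3 CPM and 58.7 and 88.1 CPM, again below the free RNA level (69.4 and 123 for Ccl7, 81.5 and 168 for Ccl2). MHC class II genes H2-Aa and H2-Eb1, which antigen-presenting cells carry, had ratios of 1.61 and 1.65, and both were below 1 under the stricter limit for the class (0.661 and 0.921). Their levels, 21.7 and 34.9 CPM and 13.6 and 22.4 CPM, were near those of free RNA (28.8 and 35.5, 17.9 and 20.7). The summed level of 10 myeloid markers moved with them, 21.6 and 35.7 CPM in hormone-sensing and 18.1 and 50.2 in alveolar barcodes, and their part in these results was not tested.

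Further genes were among the lowest of hormone-sensing barcodes. Sord, which oxidizes sorbitol, had a ratio of 0.320 (interval 0.248 to 0.410), Amt of the glycine cleavage system 0.318 (interval 0.237 to 0.422) and Zscan26, a zinc finger gene, 0.372 (interval 0.294 to 0.467). The gene 2810417H13Rik had a ratio of 0.255 (interval 0.195 to 0.330), and its OVX level was 0 UMIs. The top 1% of barcodes held 39.8% of its UMIs in OVX_E2 and 92.2% in OVX_E2_PBDE.

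In alveolar barcodes, 5 of 11 chemokines with at least 50 UMIs were higher and 3 (Cxcl2, Cxcl12 and Cxcl15) were lower, with a median log2 ratio of 0.52, beside 3.33% higher and 10.9% lower over all genes. The 2 highest ratios of the class were those of Ccl2 and Ccl7. Ccl2 was at 143, 17.2, 63.7, 42.3 and 24.6 CPM across OVX, OVX_E2, OVX_E2_PBDE, OVX_E2_P4 and OVX_E2_P4_PBDE (ratio 3.70, interval 2.63 to 5.33) and Ccl7 at 75.0, 19.4, 61.6, 50.5 and 28.1 (ratio 3.18, interval 2.29 to 4.49). OVX_E2 was the lowest library for both. Fibroblasts of OVX_E2_PBDE carried Ccl2 at 2616, far above the alveolar level, and fibroblast rule genes in alveolar barcodes summed to 725 and 787 CPM in OVX_E2 and OVX_E2_PBDE. The fibroblast rule genes reached 9.65% and 9.49% of their all-barcode level. At those percentages free RNA would give Ccl2 at 39.0 and 89.5 CPM and Ccl7 at 33.2 and 65.4. Both estimates exceed the levels in the class, so the levels do not show alveolar expression, and their source was not tested. Tnfaip2, a gene induced by tumour necrosis factor, was at 87.4 and 220.1 (ratio 2.52, interval 2.15 to 2.96) and Basp1, a membrane-bound signalling protein, at 328 and 669 (ratio 2.04, interval 1.88 to 2.22). Cxcl1, a neutrophil attractant, had a ratio of 1.68, while Cxcl2 had 0.527.

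Lalba, the milk protein of lactose synthesis, was at 244, 65.0, 126, 199 and 254 CPM in alveolar barcodes across the 5 libraries, lowest in OVX_E2 (ratio 1.94, interval 1.60 to 2.35). Of 21 milk and secretory genes, 2 of 13 were higher and 0 lower, the other being Lyz2 (20 and 127 UMIs), a lysozyme that macrophages also make. The complement genes C3, C4b and Serping1 had ratios of 1.91, 1.81 and 1.88, and 4 of 7 complement genes with at least 50 UMIs were higher and 0 lower. Serping1, at 43.1 and 81.0 CPM, was near the free RNA level of 51.7 and 76.9, while C3 (48.2 and 92.3, free 30.6 and 48.8) and C4b (62.9 and 114, free 7.58 and 11.4) were above it. Apod, a lipid-binding protein, was higher in alveolar barcodes (1.99). In hormone-sensing barcodes its ratio was 1.75, at 10.9 and 19.0 CPM, near the free RNA level of 12.9 and 17.8. The matrix and secreted genes Fn1 (1.72), Igfbp6 (1.68) and Igfbp7 (1.63) were higher in alveolar barcodes. Fn1 and Igfbp6 were below 1 under the stricter limit for the class and lay near the free RNA level, Fn1 at 49.1 and 84.6 CPM (free 45.5 and 73.3) and Igfbp6 at 98.6 and 165 (free 98.8 and 157). Fibroblasts, which carry these genes, were 36.5% of the OVX_E2 and 52.2% of the OVX_E2_PBDE barcodes. The lowest ratio was that of Upk3a, a uroplakin (85.7 and 23.7, ratio 0.277, interval 0.210 to 0.362), which had 43.2% of its OVX_E2 UMIs in the top 1% of barcodes and was above 1 under a stricter limit for the class. Ptn, the growth factor pleiotrophin, was at 444 and 182 (ratio 0.409, interval 0.369 to 0.453), beside a free RNA level of 208 and 129. Cdo1, which oxidizes cysteine, was at 68.9 and 24.9 (ratio 0.362, and above 1 under the stricter limit), with free RNA at 28.9 and 23.7. Tmem56 had ratios of 0.379 in alveolar barcodes (56.8 and 21.5 CPM, free 24.3 and 15.1) and 0.413 in fibroblasts (24.8 and 10.3, free 16.5 and 11.6). Stc2, a secreted glycoprotein that estradiol induces in breast cells, had 0.473 in alveolar barcodes (52.1 and 24.6, free 31.2 and 20.4). Hormone-sensing barcodes carried Upk3a, Ptn, Cdo1, Tmem56 and Stc2 at higher levels than alveolar barcodes, Upk3a at 511 and 306 CPM and Ptn at 4858 and 3560 CPM. The glutathione genes Gclm and Gstp1 had ratios of 0.497 and 0.541. Of the markers of hormone-sensing cells, 4 of 8 were lower (Esr1, Pgr, Areg and Ly6d) and 0 higher, beside 10.9% and 3.33% of all genes. Esr1 had 28 and 24 UMIs and Pgr 37 and 25, and Ly6d (ratio 0.580) was above 1 under the stricter limit. Areg was at 211 and 116 (ratio 0.547), and it was above 1 under the stricter limit and without barcodes of many UMIs.

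In fibroblasts, Fos, Jun, Jund, Apoe and Igf1 were lower, while Cebpb, Cxcl1, Ccl2 and Ptgs2 were higher. Divided by the class median ratio of 0.903, Fos and Igf1 fell short of 1.5-fold. Of 24 immediate early genes, 4 of 23 with at least 50 UMIs were lower and 1 was higher, beside 8.41% lower and 1.40% higher over all genes. Their median log2 ratio was -0.31 beside -0.16. Fos, a subunit of the AP-1 factor, was at 2448, 2056, 1264, 1387 and 1500.3 CPM across the 5 libraries (ratio 0.615, interval 0.601 to 0.629), lowest in OVX_E2_PBDE. Jun and Jund, its partners, had ratios of 0.571 and 0.569, and Klf2, a flow-responsive factor, 0.584. The higher gene was Fosl1 (1.56). In hormone-sensing and alveolar barcodes the same list had medians of 0.07 and 0.13, with 0 lower in either and Nr4a1, an orphan nuclear receptor, higher in alveolar barcodes (ratio 1.70).

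Of 16 chemokines with at least 50 UMIs in fibroblasts, 3 were higher (Cxcl1, Cxcl2 and Ccl2) and 1 lower (Cxcl14), with a median log2 ratio of -0.01. Over all genes 1.40% were higher and 8.41% lower. Cxcl1 was at 1241, 639, 1394, 696 and 863 CPM in fibroblasts (ratio 2.18, interval 2.10 to 2.26), and the share of thinned fibroblasts with a Cxcl1 UMI was 34.9% and 55.4%. Ccl2 was at 1607 and 2616 (ratio 1.63, interval 1.59 to 1.67), Cxcl2 had a ratio of 1.98, Ptgs2, the inducible cyclooxygenase, 2.05 (interval 1.81 to 2.34) and Has2, a hyaluronan synthase, 1.79. Krtdap, Sbsn and Mrgprg had ratios of 4.39, 2.70 and 3.70 from levels of 8.0, 24.7 and 12.6 in OVX_E2. For each of the 3, OVX_E2 was the lowest library. Krtdap and Sbsn are known from differentiating keratinocytes.

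Among lower genes, Igf1, the growth factor that fibroblasts supply to ducts, was at 216 and 142 (ratio 0.656, interval 0.611 to 0.705). Apoe, a lipid carrier, was at 640.5 and 348 (ratio 0.544, interval 0.521 to 0.568), and Insig1, which restrains cholesterol synthesis and is itself induced by sterol demand, at 69.6 and 33.8 (ratio 0.486, interval 0.425 to 0.557). Of 27 lipid and adipogenic genes, 2 of 21 were lower and 1 (Cebpb) higher, with a median log2 ratio of -0.47 beside -0.16 for all genes. Over all fibroblast genes at 50 UMIs, 8.41% were lower and 1.40% higher, so the count of lower genes was near the background. Lpl, the lipoprotein lipase, was at 1412 and 987 (ratio 0.699), short of 1.5-fold. Cdkn2c, a G1 kinase inhibitor, had a ratio of 0.542, Cxcl14, a constitutive chemokine, 0.657, and Tgfb3, a transforming growth factor, 0.609. Igf1, Cxcl14 and Tgfb3 fell short of 1.5-fold when divided by the class median ratio of 0.903. Gm17056, Gm11175, Gm15261 and Gm28875 were among the 10 lowest as well, at 0.382, 0.370, 0.366 and 0.422; whether counting used the strand was not given in the sources used here, so overlapping genes on the other strand may share their reads.

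The lowest fibroblast genes were smooth muscle and basal cell genes: Acta2 (0.158, interval 0.132 to 0.189), Tagln (0.198), Krt14 (0.200) and Tpm2 (0.308). Of 10 basal markers, 9 of 9 were lower, beside 8.41% of all genes, and their summed level was 304 CPM in OVX_E2 and 94.0 in OVX_E2_PBDE. In OVX_E2 the top 1% of fibroblasts held 79.6% of the Acta2 UMIs, 77.8% of Tagln and 83.2% of Krt14, so these ratios rested on a few barcodes, and Tagln and Krt14 were above 1 under a stricter limit for the class.

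Reporter genes of xenobiotic receptors were low in these cells. Of 10 targets of the aryl hydrocarbon receptor, 2, 2 and 3 had at least 50 UMIs in hormone-sensing barcodes, alveolar barcodes and fibroblasts, and 0 were higher in any class. Cyp1a1, the standard reporter of the aryl hydrocarbon receptor, had 0 UMIs in all 3 classes of both libraries, which allows up to 0.343 and 0.300 CPM in hormone-sensing barcodes, 1.29 and 0.923 in alveolar barcodes, and 0.510 and 0.218 in fibroblasts (3 counts). Cyp1b1 was at 48.8, 28.8, 18.9, 28.4 and 17.8 in fibroblasts across the 5 libraries, lower with PBDEs (ratio 0.658, interval 0.540 to 0.803), and had 15 and 9 UMIs in hormone-sensing barcodes. Ahr, the receptor itself, had ratios of 1.08 (interval 0.913 to 1.28) in hormone-sensing and 0.747 (interval 0.485 to 1.15) in alveolar barcodes, and Nqo1 0.695 (interval 0.433 to 1.11) and 1.19 (interval 0.813 to 1.76), all with intervals that included 1.

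Of 10 targets of the receptors CAR and PXR, 3 had at least 50 UMIs in each class and 0 passed 1.5-fold in any, with Abcc3, an efflux pump, at 118 and 100.3 in hormone-sensing barcodes (ratio 0.846). Of 22 NRF2 and glutathione genes, 21 had at least 50 UMIs in hormone-sensing barcodes and 21 in fibroblasts, and 0 passed there. In alveolar barcodes 1 of 20 was higher and 2 were lower. Of 13 genes of thyroid hormone action, 5, 5 and 6 had at least 50 UMIs in hormone-sensing barcodes, alveolar barcodes and fibroblasts. Of these, 0 passed in hormone-sensing barcodes and fibroblasts, and 1, Crym, was lower in alveolar barcodes (31 and 28 UMIs, ratio 0.646). Klf9, a thyroid hormone target, had ratios of 0.929, 1.36 and 1.01 in hormone-sensing barcodes, alveolar barcodes and fibroblasts, and Thra, the receptor, 0.956, 1.00 and 0.865. Of 24 genes of steroid metabolism, 10, 6 and 14 had at least 50 UMIs in the 3 classes, with 1 higher and 1 lower in each. In fibroblasts these were Sult1e1, the estrogen sulfotransferase (8 and 53 UMIs, ratio 2.83, interval 1.34 to 6.90), and Cyp1b1. Over all genes at 50 UMIs, 2.11%, 3.33% and 1.40% were higher and 6.96%, 10.9% and 8.41% lower in the 3 classes. Counts of 1 or 2 in these short lists are not read as a result.

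Several ribosomal protein genes and 1 mitochondrial transcript were higher in all classes. Rps28 was at 3675, 3597, 6661, 4517 and 7537 CPM in hormone-sensing barcodes across the 5 libraries, higher in both PBDE libraries than in the other 3, with ratios of OVX_E2_PBDE to OVX_E2 of 1.85, 1.95 and 1.98 in the 3 classes. Rps29 had ratios of 1.60, 1.73 and 1.75, and Rps27 1.41, 1.60 and 1.49. Rps27rt, a near-identical copy of Rps27 whose reads cannot be assigned with certainty, had ratios of 2.33, 2.49 and 2.56, and Gm10126 (2.81 in hormone-sensing barcodes) and Gm10076 (1.88 in fibroblasts) were also among the highest. In fibroblasts mt-Atp8 and mt-Nd4l were lower (0.644 and 0.658). Of the ribosomal protein genes with at least 50 UMIs, 3 of 90 were higher and 0 lower in hormone-sensing barcodes (median log2 ratio 0.08), 6 of 88 and 0 in alveolar barcodes (0.12), and 5 of 90 and 1 in fibroblasts (0.23). Over all genes at that minimum, 2.11%, 3.33% and 1.40% were higher and 6.96%, 10.9% and 8.41% lower in these classes. The hormone-sensing count of higher genes was near that background. The ribosomal protein genes summed to 223530.0 and 268706 CPM in fibroblasts. mt-Nd3, a subunit of complex I, had ratios of 2.26, 2.10 and 1.94, and 0.839 in hormone-sensing barcodes with progesterone. Rps28 was higher in the PBDE library of both pairs, as the library order was, and the 2 cannot be told apart.

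With progesterone, where the 2 libraries compared are not those above but PBDEs again follow the library order, a minority of genes was called in the same direction. Among hormone-sensing genes compared in both pairs, 16 of the 57 higher genes were also higher with progesterone (28.1%, and 11.3% of the 142 called there), and 25 of the 180 lower genes were also lower (13.9%, and 9.43% of 265). In alveolar barcodes the counts were 22 of 52 higher (42.3%, and 30.1% of 73) and 13 of 165 lower (7.88%, and 11.3% of 115), and in fibroblasts 11 of 33 higher (33.3%, and 19.3% of 57) and 22 of 83 lower (26.5%, and 14.9% of 148). The pair with progesterone called 2.66% of 5753 hormone-sensing genes higher and 4.80% lower, 3.02% and 6.14% of 3744 alveolar genes, and 1.70% and 4.45% of 3348 fibroblast genes. The ratio with progesterone was 1.52 for Pcp4, 0.915 for Areg, 1.17 for Rpap3, 1.22 for Cebpb, 0.988 for Per3 and 0.836 for Bhlhe41 in hormone-sensing barcodes. It was 0.586 for Stmn1, 0.285 for Rrm2, 0.199 for Epgn and 1.67 for Rps28, on the same side as without progesterone and past 1.5-fold in each.

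Markers of other cell types were present at low summed levels in the classes. Basal markers summed to 344 and 342 CPM in alveolar and 94.8 and 99.1 in hormone-sensing barcodes, and fibroblast markers to 401 and 472 in alveolar barcodes. Adipocyte markers summed to under 2 CPM in each class, with 6 of 8 at 0 in fibroblasts of both libraries. Endothelial markers summed to 26.2 and 21.6 CPM in hormone-sensing barcodes, lymphoid markers to 15.6 and 8.30, and pericyte markers to 48.0 and 40.8 in fibroblasts. Myeloid markers summed to 47.5 and 40.8 in fibroblasts, where they were lower with PBDEs, and were higher in both luminal classes as given above.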

How the data were processed

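Single-cell RNA was measured in 5 libraries, 1 per group. Per the labels and methods, the authors aligned the reads to mm10 with Cell Ranger 2.0.0 and deposited UMI counts per gene and barcode for 27998 annotated genes, without normalization. The 3′ kit counts molecules by their ends, so values were not divided by gene length, and genes were compared with themselves only.

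Barcodes with at least 500 genes, at least 1000 UMIs and at most 10% mitochondrial UMIs were kept, which are the limits of the study's methods. Classes were set by UMIs per 10000 of the genes named in the report, and the 10 genes that define them were left out of all comparisons. Counts were summed over the barcodes of a class and divided by their total as CPM (counts per 1000000). Intervals at 95% were exact: Poisson for a level, Clopper-Pearson for a share, and conditional binomial for a ratio. With 1 library per group there was no test, and intervals cover counting error only. A level of 0 allows up to 3 counts. No doublet caller was run, and barcodes with both luminal programs fell outside the classes.

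In each class the genes named were the 10 highest and 10 lowest ratios at 200 UMIs or more, ranked by the interval bound nearest to 1, members of 39 gene lists past 1.5-fold at 200 UMIs, and Areg, Pgr, Esr1, Greb1, Cyp1a1, Cyp1b1, Nqo1 and Ahr. The classes, lists and genes were chosen with earlier results of these data known. The list of clock genes, and the genes given as examples of a list although they missed 1.5-fold or 200 UMIs, were chosen after their values were seen. Some genes that the rule names are not reported here. Positions are from GENCODE M21, in which 27645 gene IDs were found, and promoters are from RefSeq (GRCm38.p6). Alternatives covered the class limits, quality limits, barcodes of many UMIs, free RNA, weighting, the total and the fold. Ratios and calls were tested on simulated data with known changes. Python 3.11.15, NumPy 2.4.6, SciPy 1.17.1, pandas 2.3.3 and Matplotlib 3.10.9 were used.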

Additional observations from a re-analysis of the deposited data

Results flagged for a closer look

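Among genes compared in both pairs, 3 of 57 higher and 6 of 180 lower hormone-sensing genes were called in the opposite direction with progesterone. The counts were 4 of 52 and 7 of 165 in alveolar barcodes, and 2 of 33 and 3 of 83 in fibroblasts. Of the same genes, the pair with progesterone called 4.64%, 4.35% and 4.42% lower in the 3 classes, and 2.49%, 2.76% and 1.70% higher. The 10 genes below were past 1.5-fold with PBDEs under estradiol alone and past 1.5-fold in the opposite direction with progesterone. The difference between the pairs was not tested in any of them, since each pair had 1 library per arm. In hormone-sensing barcodes Pcp4 had a ratio of 0.190 without and 1.52 with progesterone, Isg15, a ubiquitin-like protein induced by interferon, 1.69 and 0.506, and Mt2 1.57 and 0.510. In alveolar barcodes the ratios were 3.70 and 0.581 for Ccl2, 3.18 and 0.555 for Ccl7, 2.68 and 0.444 for Hspa1b, and 0.547 and 1.57 for Areg. In fibroblasts they were 3.70 and 0.513 for Mrgprg, 0.370 and 3.71 for Gm11175, and 1.94 and 0.487 for Wfdc18, a whey acidic protein family member. For Mt2 in hormone-sensing barcodes, Ccl2 and Ccl7 in alveolar barcodes and Mrgprg in fibroblasts, OVX_E2 was the lowest of the 5 libraries. The levels of Ccl2 and Ccl7 in alveolar barcodes were below what free RNA would give. Wfdc18 in fibroblasts was at 10.9 and 21.2 CPM, beside a free RNA level of 33.9 and 43.8 CPM. That level was set by Krt8, Krt19, Areg and Wfdc18 itself, so it is not independent of Wfdc18.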

How the results depend on the processing

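No paired analysis was possible because each group had 1 library, and for the same reason no library could be left out. In hormone-sensing barcodes the counts of higher and lower genes, 68 and 228, became 134 and 112 when centred on the median ratio, 218 and 719 at 50 UMIs, and 16 and 33 at 2-fold. In alveolar barcodes 53 and 165 became 108 and 61 centred, 232 and 762 at 50 UMIs, 9 and 18 at 2-fold, 87 and 76 without mitochondrial and ribosomal genes in the total, and 86 higher with no limit on the other luminal markers. In fibroblasts 46 and 243 became 117 and 106 centred, 145 and 872 at 50 UMIs, 13 and 23 at 2-fold, 84 and 145 without mitochondrial and ribosomal genes, and 145 lower under stricter class limits (own markers at least 20, or 100 for fibroblasts, and others under 2 per 10000). Those limits gave differences in share of -5.52 points for hormone-sensing barcodes, 0.651 for alveolar barcodes and 11.3 for fibroblasts. They also turned ratios across 1, to 0.661 for H2-Aa, 0.921 for H2-Eb1 and 0.767 for Wfdc18 in hormone-sensing barcodes, to 1.2 for Upk3a, 1.09 for Cdo1, 2.09 for Areg, 0.893 for Fn1, 0.992 for Igfbp6 and 1.11 for Ly6d in alveolar barcodes, and to 0.936 for Lyz2, 1.09 for Tagln and 1.43 for Krt14 in fibroblasts. Areg in alveolar barcodes was 1.45 without barcodes above 2 times the class median of UMIs. With no limit on epithelial markers, Areg in fibroblasts was 0.927 and Pcp4 was 1.52. The cause of these changes was not tested. Of 157 ratios of named genes, 122 kept their side and their fold under the stricter limits, 123 with no limit on other markers, 133 with equal weight of barcodes, 138 of 139 with free RNA subtracted (18 had no value because a level reached 0, among them Ccl2, Ccl7 and Ifi27l2a in both luminal classes and Serping1 and Igfbp6 in alveolar barcodes), 139 when centred, 140 without barcodes of many UMIs, 149 without mitochondrial and ribosomal genes, and 157 with no quality limits. Depth limited the alveolar class most, where 2647 genes reached 200 UMIs.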
